A study of Mus musculus with 9 samples.

Results

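The miRNA cargo of small extracellular vesicles (smEVs) released by Bbs4-/- kidney medullary (KM) cells was compared with that of wild-type (WT) KM cells. Small RNA had been sequenced from 3 independent smEV pellets per line, and the members of the comparison were all miRNA entries with a total of at least 6 counts over the 3 Bbs4-/- and 3 WT libraries, which held for 308 of the 1164 entries in the table. Another 117 entries had 1 to 5 counts and were not tested. The lines are immortalised cells of the mouse kidney medulla, 1 line per genotype, so that an effect of the Bbs4 knockout and a difference between these lines cannot be told apart. The cells of both lines had been grown to confluence and kept for 24 h without serum (FBS), which halts the cell cycle and leads KM cells to form cilia, before vesicles were collected from the medium by differential centrifugation. The same experiment held 3 smEV libraries of a Bbs6-/- line treated in the same way, used here only where the Bbs4-/- values are set beside them. The table holds miRNAs of vesicles alone, so neither the loss of the Bbs4 transcript nor the miRNA content of the cells could be read from it, and a miRNA carried by fewer vesicles cannot be told apart from one present in fewer copies per vesicle.

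Bbs4 is a subunit of the BBSome, a coat complex that carries membrane proteins into and out of the primary cilium. MicroRNAs are short RNAs cut from hairpin precursors. They repress mRNAs that pair with their seed, the bases near their 5′ end, so that miRNAs with the same seed share most predicted targets. Vesicles of the endosomal route carry miRNAs of the releasing cell, and part of this cargo is sorted by RNA-binding proteins. In kidney epithelium the let-7, miR-30, miR-10 and miR-200 families are well known: let-7 miRNAs restrain growth genes of early development, miR-30 miRNAs act in tubule and podocyte development, and miR-200 miRNAs hold down the transcription factors Zeb1 and Zeb2 and so keep cells epithelial.

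Mature sequences were taken from RefSeq (GRCm38.p6), which listed at least 1 arm for 263 of the 308 entries. The deposited entries do not name the arm of the hairpin that was counted. Sequences are written 5′ to 3′ with the seed (bases 2 to 8) in capitals. The first set holds abundant miRNAs that were higher in Bbs4-/- smEVs, and it is shown because these miRNAs carried most of the gain in cargo.
miR-21a-5p: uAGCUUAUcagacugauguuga
miR-10a-5p: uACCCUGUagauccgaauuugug
let-7a-5p: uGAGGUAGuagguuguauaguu
let-7i-5p: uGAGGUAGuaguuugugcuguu
miR-30a-5p: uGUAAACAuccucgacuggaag
miR-125a-5p: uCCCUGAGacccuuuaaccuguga
miR-7a-5p: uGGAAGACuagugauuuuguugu
miR-218-5p: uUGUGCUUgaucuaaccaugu
miR-484: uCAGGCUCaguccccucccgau

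The second set holds 4 abundant entries with late miRBase numbers that were lower in Bbs4-/- smEVs. It is shown because these entries carried most of the loss in cargo and their sequences are rich in G and C.
miR-6240: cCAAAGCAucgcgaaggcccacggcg
miR-6538: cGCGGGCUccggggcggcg
miR-5126: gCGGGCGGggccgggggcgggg
miR-2137: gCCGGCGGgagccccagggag

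The third set gives relatives of miRNAs that changed. It is shown because some of these were called in the opposite direction or not called, so that the letters they share with their relatives can be seen.
miR-10b-5p: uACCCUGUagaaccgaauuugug
miR-200c-3p: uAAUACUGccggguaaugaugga
miR-200b-3p: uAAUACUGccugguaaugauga
miR-141-3p: uAACACUGucugguaaagaugg
miR-200a-3p: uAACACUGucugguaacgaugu
miR-25-3p: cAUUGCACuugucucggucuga
miR-92a-3p: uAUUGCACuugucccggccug
miR-30e-5p: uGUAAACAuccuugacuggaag
miR-351-5p: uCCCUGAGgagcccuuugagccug

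Counted from 1 at the 5′ end, miR-10a-5p and miR-10b-5p differed by the single substitution U12A, and miR-30a-5p and miR-30e-5p by C13U. From miR-200b-3p to miR-200c-3p the substitutions were U11G and A22G, with 1 further base at the end of miR-200c-3p.

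The Bbs4-/- libraries held 176935, 213161 and 457163 miRNA counts (replicates 1, 2 and 3 of the table) and the WT libraries 64118, 106217 and 130905 (replicates 1, 3 and 4), so every WT library was shallower. Levels are given as CPM, counts scaled to 1 common library size, after TMM normalisation in edgeR, whose factors ran from 0.888 to 1.20. An observed count of 0 allows a true level of up to 3 counts, which was 7.05 to 19.1 CPM in Bbs4-/- and 22.2 to 38.9 CPM in WT. These limits cover counting error only. In chi-square tests the 6 pairs of libraries of the same line all differed beyond sampling noise, at 18.1 to 39.8 for each degree of freedom, so none was counted as a repeat of another. The 14 miRNAs listed as typical of kidney epithelium were all tested and made up 15.3% to 16.0% of the Bbs4-/- counts and 10.6% to 14.3% of the WT counts, with 5 called higher, 1 lower and a median log2 fold change of 0.44, against 8.77% called higher, 6.49% lower and a median of -0.02 over all 308 miRNAs (adjusted p under 0.1, edgeR). The blood list summed to 0.110% to 0.156% in Bbs4-/- and 0.175% to 0.232% in WT, with 6 of its 9 members tested, none called, and miR-150 and miR-142b at 0 in all 6 libraries. Most of its counts, 1538, were those of miR-155. The muscle list, with 2 of 6 members tested and neither called, summed to 0.125% to 0.224% in Bbs4-/- and 0.101% to 0.198% in WT. Its counts were mostly those of miR-206. The mesenchyme list stayed at or under 0.0305% in every library, with miR-145a and miR-214 at 0.

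Across the 308 miRNAs, 27 were higher (8.77%) and 20 lower (6.49%) in Bbs4-/- smEVs at a Benjamini-Hochberg adjusted p under 0.1 (edgeR's quasi-likelihood test). Together these were 15.3% of those tested, and 80 had an unadjusted p under 0.05. A change of at least 4-fold was reached by 12 of the higher miRNAs (3.90% of 308) and 7 of the lower (2.27%). The other 28 changed by less than 4-fold, and 19 of them were abundant, with a mean of at least 1000 CPM over the 6 libraries. Of the 68 abundant miRNAs, which held 96.1% to 97.2% of the counts of a library, 20 were called (29.4%): 12 rose and 7 fell by less than 4-fold, and miR-200c rose further. miR-200c met the limit of 1000 CPM only through its Bbs4-/- level, so its change itself placed it among the 68 and the 20. For all 47 called miRNAs the 3 Bbs4-/- levels lay wholly above or wholly below the 3 WT levels, a separation that 17.2% of all tested miRNAs showed with Bbs4-/- above and 14.0% with Bbs4-/- below. Just inside the 4-fold limit lay miR-101a at 4.91-fold lower, and just outside it miR-181c at 3.97-fold and miR-224 at 3.92-fold lower.

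The balance of the calls depended on the scale. With TMM scaling 57.4% of the called miRNAs were higher and the median log2 fold change of all 308 was -0.02. With scaling by the total count alone the median was -0.20 and 43.1% of 51 calls were higher. With totals over the entries outside the list of structural RNA-like names the median was -0.30 and 32.2% of 59 calls were higher. Changes below are given on the TMM scale beside the plain share of the library's count, which needs no scaling. Without Bbs4-/- replicate 1 the calls fell to 27, of which all were among the 47.

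**Figure D1:**
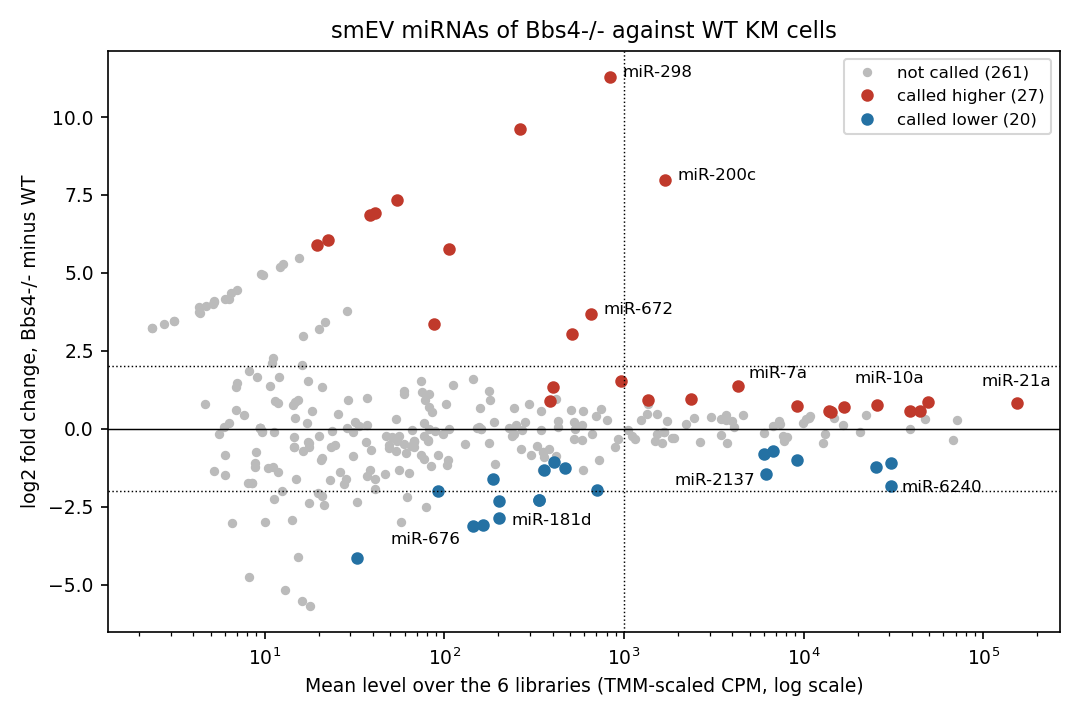
Each point is 1 of the 308 miRNAs, with its mean level over the 6 libraries on a log axis in TMM-scaled CPM and its log2 fold change (Bbs4-/- minus WT) on the vertical axis. The 27 miRNAs called higher are red and the 20 called lower are blue; dotted lines mark 1000 CPM and a 4-fold change, and most called miRNAs to the right of 1000 CPM lie between the 4-fold lines. The rising line of points at the upper left holds miRNAs with no WT counts, whose fitted change depends on the prior count.

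The Bbs4-/- cargo was concentrated on fewer miRNAs. miR-21a, the most abundant miRNA of both lines and known for promoting growth and fibrosis in kidney, took 17.1%, 20.1% and 18.2% of the Bbs4-/- counts and 11.3%, 12.0% and 11.5% of the WT counts. The 3 Bbs4-/- shares all lay above the 3 WT shares. The lowest Bbs4-/- share had a Wilson 95% interval of 16.9% to 17.3% and the highest WT share one of 11.8% to 12.2%. These intervals cover counting error within a library only and not the spread between pellets. The mean share was 18.5% ± 1.54 in Bbs4-/- against 11.6% ± 0.359 in WT (SD, n = 3 each), a difference of 6.90 points (two-sided exact permutation test, p = 0.1, the smallest that 3 against 3 allows). The 10 most abundant miRNAs together held 58.4% ± 1.20 against 55.4% ± 1.89, and without WT replicate 1 this difference of 3.10 points grew to 6.39. The effective number of miRNAs, the number of equally frequent miRNAs that would give the same Shannon entropy, was 34.5 ± 1.03 in Bbs4-/- and 40.1 ± 1.35 in WT. For both measures the 6 values again separated by line, with the same smallest possible p of 0.1 (two-sided exact permutation test).

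Between a Bbs4-/- and a WT library 17.6% to 22.0% of the counts would have to change their miRNA for the profiles to match, with a mean of 19.6% over the 9 pairs. Within a line this was 5.94% to 8.51% for Bbs4-/- and 8.60% to 10.4% for WT. Between the mean profiles 18.3 points of share were gained and lost. miR-21a alone accounted for 37.7% of the gain. The 6 miRNAs with the largest gains, miR-21a, miR-10a, let-7a, miR-30a, let-7i and miR-30d, made up 71.5% of it, and all of these were called. The 6 largest losses, 69.2% of the loss, belonged to miR-6240, miR-6538, miR-182, miR-5126, miR-2137 and miR-10b, of which all but miR-182 were called.

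**Figure D2:**
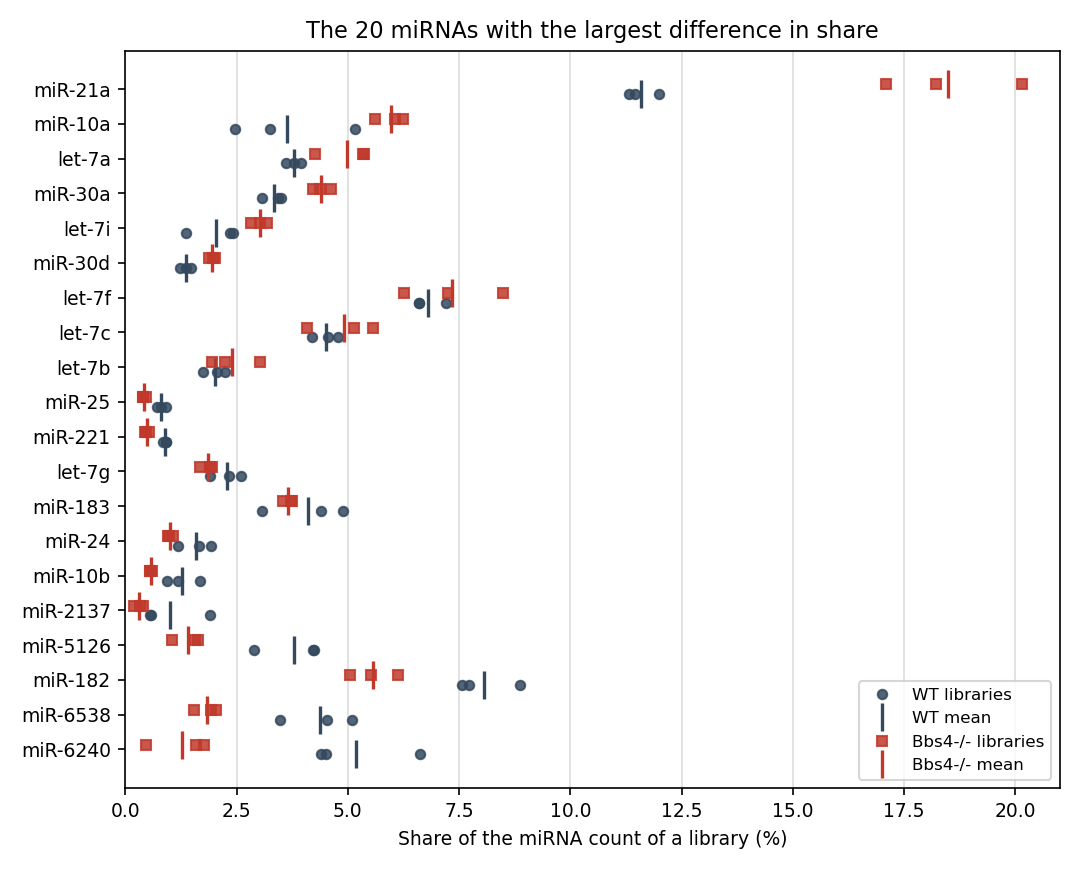
The share of each library's miRNA count (%) is shown for the 20 miRNAs whose mean share differed most between the lines, ordered from the largest gain to the largest loss in Bbs4-/-. Squares are the 3 Bbs4-/- libraries, circles the 3 WT libraries and ticks the group means; miR-21a lies at 17.1% or more in Bbs4-/- and at 12.0% or less in WT.

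Measured by share, the moderate changes of abundant miRNAs far outweighed the large changes. The 12 abundant miRNAs that rose by 1.44-fold to 2.60-fold held 44.1% ± 1.01 of the Bbs4-/- counts and 29.4% ± 1.18 of the WT counts. The 7 abundant miRNAs that fell by 1.64-fold to 3.56-fold held 6.30% ± 1.43 against 17.3% ± 1.53. By contrast, the 12 miRNAs called at least 4-fold higher went from 0.0251% to 0.793% of the counts, and the 7 called at least 4-fold lower from 0.258% to 0.0392%. The entries miR-101a and miR-101c, both among the 7, had identical counts in all 6 libraries, so they carry 1 signal that enters this sum and the counts of lower calls more than once, and with identical entries merged 6 were called at least 4-fold lower. These sets were chosen by their change in the same libraries. The moderate sets were also limited to abundant miRNAs and the 4-fold sets were not, which alone gives the moderate sets a larger share. The sums thus describe where the difference lies and are no test of it. miRNAs that were not called still held 48.4% of the Bbs4-/- and 52.5% of the WT counts.

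Among the 12 abundant miRNAs that rose, miR-21a had 192702, 200862 and 195626 CPM in the Bbs4-/- libraries and 94042, 123689 and 110845 CPM in WT, 1.79-fold higher (log2 fold change 0.84, standard error 0.19, adjusted p = 0.00968, edgeR). The Bbs4-/- levels were close to each other and all lay above WT. Its hairpin, at chr11:86584067-86584158 on the minus strand, overlaps an exon of at least 1 annotated transcript of Vmp1. miR-10a, which is encoded among the Hoxb genes at chr11:96317165-96317274, had 68267, 55988 and 67079 CPM against 20427, 53286 and 31355 CPM, 1.82-fold higher (log2 fold change 0.86, standard error 0.28, adjusted p = 0.0623, edgeR). The WT libraries of miR-10a spread widely and WT replicate 3 came close to the lowest Bbs4-/- library. The call of miR-21a held without any 1 library, while that of miR-10a was lost without Bbs4-/- replicate 1 or WT replicate 4. Both calls were lost when the replicate number of the columns was added to the fit as a block.

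The largest rise of an abundant miRNA under 4-fold was that of miR-7a, known for repressing the receptor Egfr. It had 7412, 5051 and 6249 CPM in Bbs4-/- against 3203, 1447 and 2563 CPM in WT, 2.60-fold higher (log2 fold change 1.38, standard error 0.28, adjusted p = 0.00373, edgeR). miR-218, whose hairpins lie in introns of the guidance genes Slit2 and Slit3, was very even in Bbs4-/- with 3126, 3049 and 3206 CPM against 1115, 2039 and 1662 CPM in WT, 1.94-fold higher (log2 fold change 0.96, standard error 0.25, adjusted p = 0.0188, edgeR). miR-484, whose precursor is not cut by Drosha, had 1522, 1871 and 1895 CPM against 1089, 1049 and 687 CPM, 1.88-fold higher (log2 fold change 0.91, standard error 0.26, adjusted p = 0.0312, edgeR). miR-218 was listed here among neuronal markers, of which 3 of 5 were tested, with 1 called higher, none lower and a median log2 fold change of -0.69. miR-9 (log2 fold change -1.003) and miR-129 (-0.69) were not called, and miR-124 and miR-153 had 2 and 1 counts in all 6 libraries together. For miR-7a, miR-218 and miR-484 the levels did not overlap between the lines. The calls of miR-7a and miR-218 held without any 1 library and under each other scaling, whereas miR-484 was not called without WT replicate 4 or with scaling by total counts.

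The let-7 family held 29.4%, 23.9% and 29.8% of the Bbs4-/- counts and 25.1%, 22.3% and 24.3% of the WT counts, so the summed shares overlapped. Of its 10 tested members 4 rose (let-7a, let-7d, let-7e and let-7i), none fell, and the median log2 fold change was 0.51, against 8.77% called higher, 6.49% called lower and a median of -0.02 over all 308 miRNAs. let-7i had 35977, 28230 and 32426 CPM against 19493, 14050 and 23466 CPM, a 1.69-fold rise (log2 fold change 0.76, standard error 0.22, adjusted p = 0.0312, edgeR). let-7a went from 35609 ± 3120 CPM in WT to 53408 ± 9631 CPM in Bbs4-/- (SD, n = 3 each; adjusted p = 0.0740, edgeR), and its lowest Bbs4-/- library, at 42453 CPM, was close to the highest WT library at 39022 CPM. let-7f, the most abundant member, had 62442 to 95597 CPM in Bbs4-/- and 54887 to 69578 CPM in WT, overlapping and not called (log2 fold change 0.29, standard error 0.21). let-7g, the member at the other end, was not called either (log2 fold change -0.10, standard error 0.19). All 4 let-7 calls were lost with totals over entries outside the structural RNA-like list. Those of let-7a and let-7e were lost without Bbs4-/- replicate 1, Bbs4-/- replicate 3 or WT replicate 4. That of let-7d was lost without Bbs4-/- replicate 3 or WT replicate 4, and that of let-7i without Bbs4-/- replicate 1.

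miR-30a and miR-30d, 2 of the 5 tested members of the miR-30 family, were higher in Bbs4-/-. miR-30a was tight in both lines, with 47509, 46171 and 46921 CPM in Bbs4-/- and 29168, 35488 and 29752 CPM in WT, a 1.49-fold rise (log2 fold change 0.57, standard error 0.18, adjusted p = 0.0578, edgeR). miR-30d had 22102, 20148 and 20265 CPM against 12243, 14098 and 11833 CPM, a 1.64-fold rise (log2 fold change 0.71, standard error 0.18, adjusted p = 0.0177, edgeR). Neither overlapped between the lines. miR-30c (log2 fold change 0.31), miR-30b (0.58) and miR-30e (-0.13) were not called, and for miR-30e the Bbs4-/- levels of 5094 to 6595 CPM lay within and below the WT range of 5616 to 6962 CPM. The call of miR-30a was lost without Bbs4-/- replicate 1, Bbs4-/- replicate 3 or WT replicate 4, while that of miR-30d held without any 1 library. With the replicate number in the fit as a block both calls were lost. miR-125a, which shares a primary transcript with let-7e on chromosome 17, was the weakest of the 12, at 16931, 16103 and 17224 CPM against 9779, 13438 and 11722 CPM (log2 fold change 0.52, standard error 0.19, adjusted p = 0.0953, edgeR).

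**Figure D3:**
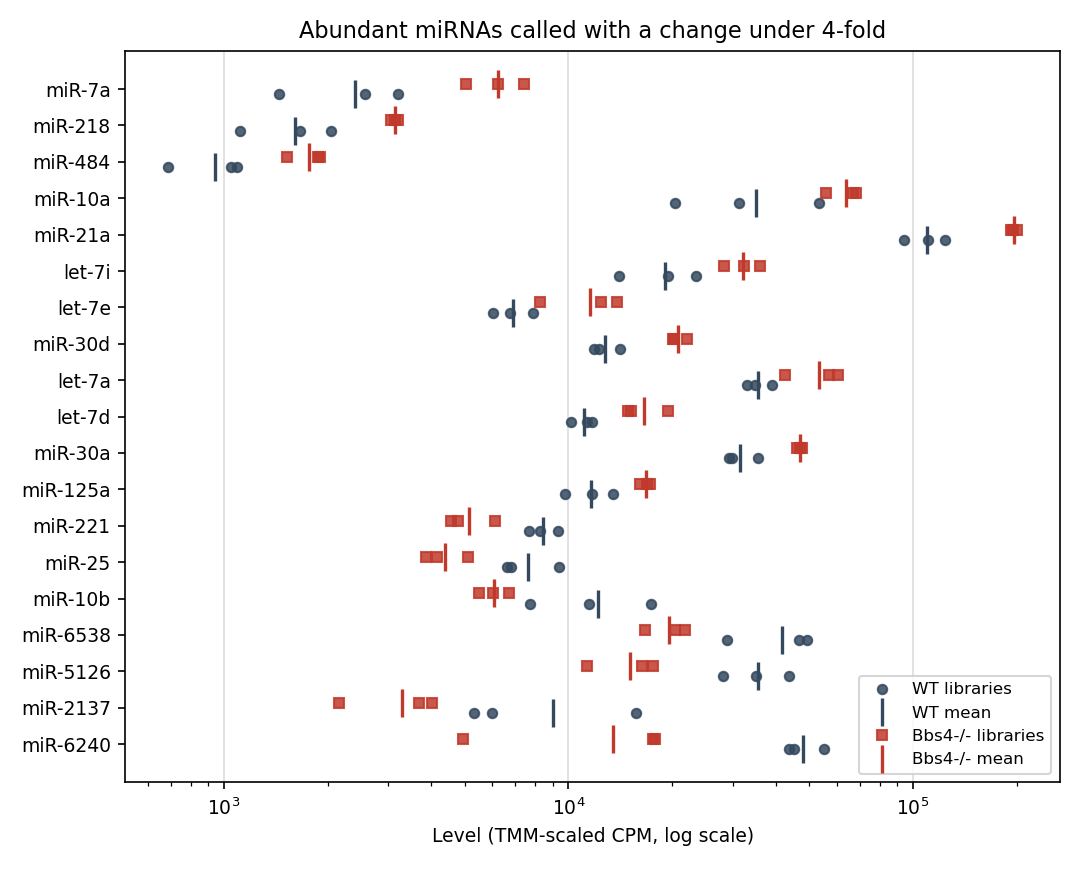
Levels in TMM-scaled CPM (log axis) are shown for the 19 abundant miRNAs called with a change under 4-fold, ordered by log2 fold change from miR-7a at the top to miR-6240 at the bottom. Squares are Bbs4-/- libraries, circles WT libraries and ticks group means; in each row the squares and circles do not overlap.

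Among the 7 abundant miRNAs that fell, the 4 late-numbered entries held most of the loss. These 4 were taken from the entries called lower. Other entries with late numbers, such as miR-5110 (log2 fold change 0.78) and miR-5119 (-1.32), were not called. miR-6240 took 1.58%, 1.77% and 0.461% of the Bbs4-/- counts and 6.63%, 4.39% and 4.51% of the WT counts, 3.56-fold lower on the TMM scale (log2 fold change -1.83, standard error 0.36, adjusted p = 0.00341, edgeR). Bbs4-/- replicate 3, the deepest library, lay far below the other Bbs4-/- libraries for this entry. miR-6538 went from 3.47%, 4.53% and 5.09% in WT to 1.93%, 2.04% and 1.55% in Bbs4-/- (log2 fold change -1.09, standard error 0.23, adjusted p = 0.00481, edgeR). miR-5126 went from 4.21%, 4.23% and 2.90% to 1.56%, 1.64% and 1.05% (log2 fold change -1.24, standard error 0.23, adjusted p = 0.00224, edgeR). miR-2137 had 1.89% of the counts in WT replicate 1 but 0.581% and 0.550% in the other WT libraries, against 0.326%, 0.403% and 0.201% in Bbs4-/- (log2 fold change -1.46, standard error 0.37, adjusted p = 0.0177, edgeR). All 4 were lower in Bbs4-/- without overlap, and together they went from 14.3% ± 1.66 of the WT counts to 4.84% ± 1.38 of the Bbs4-/- counts (SD, n = 3 each). The calls of miR-6240, miR-6538 and miR-5126 held without any 1 library, and that of miR-2137 was lost without Bbs4-/- replicate 1. With the replicate number in the fit as a block the call of miR-6538 was lost.

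The listed sequences of miR-5126, miR-6538, miR-2137 and miR-6240 consisted to 100%, 94.7%, 85.7% and 69.2% of G and C, against a median of 49.0% over the 263 entries with a sequence. For the called lower miRNAs the median was 52.7% with these 4 entries and 47.6% without them, and for the called higher miRNAs 48.3%. In the RefSeq gene table no hairpin of these 4 overlapped a tRNA, rRNA, snoRNA or snRNA gene. The hairpin of miR-1983, called lower by 8.45-fold at a mean of 165 CPM, overlapped the tRNA gene n-TItat14 on chromosome 13. Only genome positions were compared, so a sequence shared with an RNA gene elsewhere would not be seen. A list of 22 names of entries that resemble pieces of structural RNA held miR-6240, miR-5126, miR-2137 and miR-1983 among its 16 tested members. None of the 16 was called higher, these 4 were called lower and the median log2 fold change was -0.64, against 8.77%, 6.49% and -0.02 over all 308 miRNAs. Their summed share was 8.45% to 13.5% in WT and 1.93% to 4.24% in Bbs4-/-. The part that fragments of other RNAs play in these entries was not tested.

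The other 3 abundant miRNAs that fell were miR-10b, miR-25 and miR-221. miR-10b, encoded among the Hoxd genes at chr2:74726070-74726137 in introns of Hoxd3 and Hoxd4, had 6705, 5500 and 6043 CPM in Bbs4-/- and 7756, 17302 and 11441 CPM in WT, 2.00-fold lower (standard error 0.26 on the log2 scale, adjusted p = 0.0189, edgeR). miR-25, at chr5:138165321-138165404, overlaps an exon of at least 1 annotated transcript of Mcm7. It had 5094, 3868 and 4140 CPM against 6614, 9379 and 6818 CPM, 1.74-fold lower (log2 fold change -0.80, standard error 0.22, adjusted p = 0.0239, edgeR). miR-221, known for repressing the cell cycle inhibitor p27, had 6100, 4574 and 4772 CPM against 7665, 9350 and 8280 CPM, 1.64-fold lower (log2 fold change -0.71, standard error 0.20, adjusted p = 0.0312, edgeR). For each of the 3 the highest Bbs4-/- library lay below the lowest WT library, by the smallest margin for miR-10b. All 3 calls were lost without WT replicate 3, those of miR-10b and miR-25 also without Bbs4-/- replicate 1, those of miR-25 and miR-221 without Bbs4-/- replicate 2, and that of miR-221 without Bbs4-/- replicate 3.

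miR-182 was the most abundant miRNA whose share fell without a call. It took 6.13%, 5.05% and 5.51% of the Bbs4-/- counts and 7.56%, 7.73% and 8.87% of the WT counts, which did not overlap. On the TMM scale its levels did overlap, at 50390 to 69069 CPM against 62889 to 85747 CPM (log2 fold change -0.35, standard error 0.20, adjusted p = 0.304, edgeR). With total counts in place of TMM the log2 fold change was -0.53 (adjusted p = 0.0251, edgeR), so for this miRNA the scale decided the call. Its cluster mate miR-183 had 35241 to 42115 CPM in Bbs4-/- and 25472 to 50353 CPM in WT and showed no direction that held across settings.

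Below 1000 CPM, 3 miRNAs rose and 6 fell by less than 4-fold. miR-340 had 1280, 1688 and 1346 CPM in Bbs4-/- and 558, 534 and 399 CPM in WT, 2.90-fold higher, and its call held without any 1 library (log2 fold change 1.54, standard error 0.27, adjusted p = 0.00159, edgeR). miR-744 (2.51-fold) and miR-128 (1.87-fold) also rose, miR-128 with adjusted p = 0.0857 (edgeR) and a call lost without any single library other than WT replicate 1. The call of miR-744 was lost without Bbs4-/- replicate 1. miR-224, in an intron of Gabre on the X chromosome, had 255, 276 and 333 CPM against 752, 1515 and 1130 CPM, 3.92-fold lower (log2 fold change -1.97, standard error 0.32, adjusted p = 0.000857, edgeR). miR-532, miR-615, miR-351, miR-146a and miR-181c fell by 2.10-fold (miR-351) to 3.97-fold (miR-181c). Of these 6 lower miRNAs only the call of miR-224 held without any 1 library.

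Of the miRNAs that passed the 4-fold limit, miR-200c was the only abundant one, and it met the abundance limit through the Bbs4-/- libraries alone. It had 513, 753 and 1420 counts in the Bbs4-/- libraries, 3267 to 3522 CPM, and no more than 2 counts in any WT library, which makes it at least 112-fold higher when WT is set to 3 counts per library (adjusted p = 1.13e-09, edgeR). miR-298 had 306, 321 and 670 counts against 0 in WT, or at least 55.7-fold more (adjusted p = 8.86e-08, edgeR). The other miRNAs at 0 in all WT libraries were miR-296, at least 17.5-fold higher, miR-141, at least 3.61-fold, miR-504, at least 2.73-fold, miR-194-2, at least 2.57-fold, miR-34c, at least 1.49-fold, and miR-34b, at least 1.30-fold, while miR-365-2 had 1 WT count and was at least 6.94-fold higher. The separate entry miR-365 was not called, and its log2 fold change was negative (-0.84). At the depth of the WT libraries the bounds from miR-141 to miR-34b lie under 4-fold although the fitted changes exceed it, and the calls of miR-34b and miR-34c rest on 33 and 32 counts. miR-672, which WT smEVs did carry, had 1426, 1099 and 1090 CPM against 195, 58.3 and 44.3 CPM, a 12.9-fold rise (adjusted p = 0.000112, edgeR). In the opposite direction miR-676 had 25.5, 23.4 and 37.6 CPM against 156, 311 and 310 CPM, an 8.62-fold drop (adjusted p = 0.000857, edgeR). miR-181d had 89.1, 46.8 and 18.8 CPM against 246, 340 and 473 CPM, a 7.31-fold drop (adjusted p = 0.00298, edgeR). The liver miRNA miR-122, at 19 counts in WT and 2 in Bbs4-/-, was at least 4.64-fold lower, with a call lost without any 1 of Bbs4-/- replicates 1 and 3 and WT replicates 1 and 4.

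Among miRNAs with the same seed, some were called and others were not, and for the seeds of miR-10a and miR-125a there were calls in both directions. miR-10a and miR-10b were called in opposite directions, so their summed share went only from 4.89% ± 1.77 in WT to 6.54% ± 0.335 in Bbs4-/- (SD, n = 3 each), and the ranges overlapped. In the miR-200 family miR-200c and miR-141, neighbours on chromosome 6, were called higher, while miR-200b, miR-200a and miR-429 from chromosome 4 were not. miR-200b had 10080, 9920 and 11660 CPM in Bbs4-/- and 7898, 10205 and 9602 CPM in WT (log2 fold change 0.19, standard error 0.19, adjusted p = 0.550, edgeR). The 3 miRNAs with the seed AAUACUG (miR-200b, miR-200c and miR-429) together went from 1.15% ± 0.0230 to 1.49% ± 0.14. miR-25 fell while miR-92a, with the same seed, was at 17957, 16047 and 17943 CPM against 14189, 18069 and 15053 CPM (log2 fold change 0.13, standard error 0.18).

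In the miR-181 family the members miR-181c and miR-181d, in the same cluster, fell and the more abundant miR-181a (log2 fold change 0.46, standard error 0.24) and miR-181b (0.30, standard error 0.27) were not called, and their summed share was 0.284% ± 0.0459 against 0.289% ± 0.0318. miR-125a rose and miR-351, which carries its seed, fell (log2 fold change -1.07, standard error 0.33, adjusted p = 0.0489, edgeR), with miR-125b between them and not called. miR-99a rose 10.3-fold from 0, 9.71 and 29.5 CPM to 108, 239 and 136 CPM (adjusted p = 0.00733, edgeR), while the far more abundant miR-99b was at 12236 to 12633 CPM against 6874 to 11185 CPM and not called. miR-221 fell and its neighbour miR-222 was not called (log2 fold change -0.39, standard error 0.21, adjusted p = 0.280, edgeR). Whether members of a pair differ from each other in their change was not tested.

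**Figure D4:**
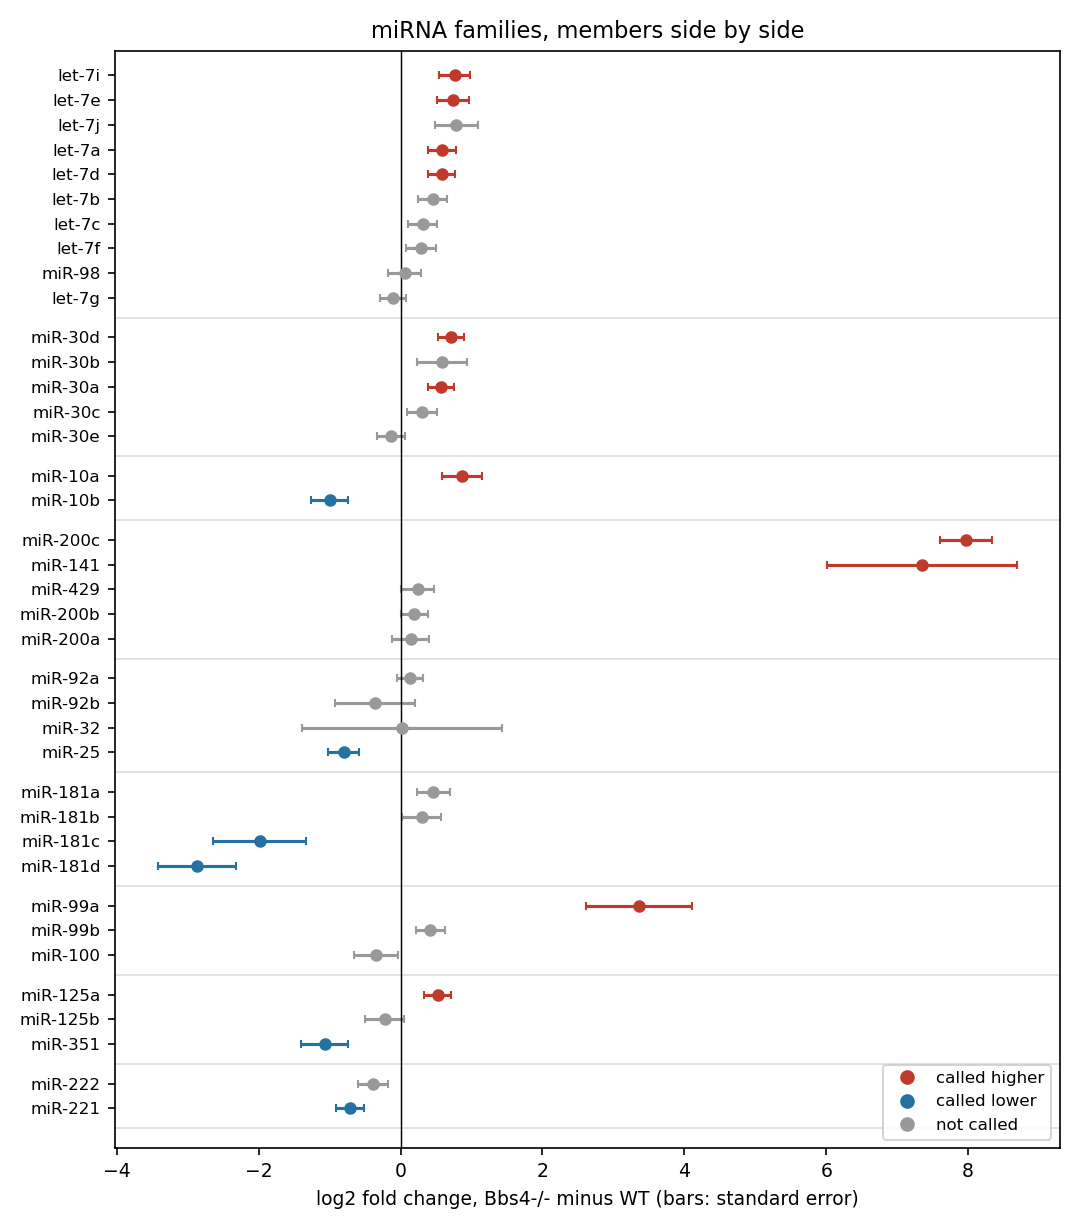
Log2 fold changes (Bbs4-/- minus WT) with standard errors are shown for the tested members of 9 miRNA families, set apart by grey lines. Red points are called higher, blue points called lower and grey points not called; miR-10a and miR-10b lie on opposite sides of 0, and miR-200c and miR-141 lie far to the right of the other miR-200 members.

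Neighbouring hairpins were in part called together. miR-298 and miR-296, 2 hairpins on chromosome 2 in the imprinted Gnas region, were both called higher, as were let-7e and miR-125a on chromosome 17. miR-99b, which lies beside let-7e on chromosome 17, was not called (log2 fold change 0.42). The calls of let-7e and miR-125a were each lost without Bbs4-/- replicate 1, Bbs4-/- replicate 3 or WT replicate 4. In the cluster with miR-25 on chromosome 5, miR-93 (log2 fold change 0.26, standard error 0.18) and miR-106b (-0.03, standard error 0.31) were not called. miR-99a was called higher while let-7c, its neighbour on chromosome 16 and at 47585 CPM on average, was not (log2 fold change 0.31, standard error 0.20). Of the 5 miRNAs listed for the Hox clusters, 1 rose (miR-10a), 2 fell (miR-10b and miR-615), and miR-196a and miR-196b had log2 fold changes of 0.44 and -0.43.

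The letters GGAG and CCCU, which occur in motifs described for miRNA sorting into exosomes, were searched in the listed mature strands. GGAG was found in 43 of the 263 entries with a sequence (16.3%), in 4 of the 26 called higher (15.4%) and in 4 of the 19 called lower (21.1%). CCCU was found in 47 entries (17.9%), in 5 of those called higher (19.2%) and in 4 of those called lower (21.1%). The shares among called entries were near those among all entries. A match of these letters is a description of the sequence alone.

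Set beside the Bbs6-/- libraries on a scale common to all 9, most of the named miRNAs did not differ between the mutants by the direct test (edgeR, adjusted p under 0.1), in which 13 of 309 miRNAs were higher (4.21%) and 12 lower (3.88%) in Bbs4-/-. Among those named here by rule, 4 were called higher in Bbs4-/- than in Bbs6-/- (miR-298, miR-484, miR-30a and miR-194-2) and 4 lower (miR-25, miR-181d, miR-676 and miR-203). miR-30a had 47167, 44216 and 46514 CPM in Bbs4-/-, 34199, 27197 and 26279 CPM in Bbs6-/- and 27341, 32549 and 26039 CPM in WT, so that the Bbs6-/- libraries lay near WT (Bbs4-/- minus Bbs6-/- log2 fold change 0.65, standard error 0.18, adjusted p = 0.0569, edgeR). miR-484 had 1511, 1792 and 1879 CPM in Bbs4-/- and 768, 615 and 621 CPM in Bbs6-/- (log2 fold change 1.37, standard error 0.26, adjusted p = 0.0108, edgeR). miR-25 had 5057, 3704 and 4105 CPM in Bbs4-/- and 7030, 6593 and 7585 CPM in Bbs6-/- (log2 fold change -0.72, standard error 0.21, adjusted p = 0.0623, edgeR). miR-21a, by comparison, had 191317 to 193928 CPM in Bbs4-/- and 207400 to 241663 CPM in Bbs6-/- (log2 fold change -0.21, standard error 0.17, adjusted p = 0.643, edgeR), and miR-6240 had 4903 to 17701 CPM against 5364 to 29634 CPM (adjusted p = 0.974, edgeR). The Bbs4-/- libraries enter both this contrast and that with WT.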

How the data were processed

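Counts per miRNA from 9 smEV libraries were used as deposited. Per the labels and the study's methods, the authors trimmed adapters (cutadapt 1.9), removed low-quality reads, collapsed reads by unique molecular identifiers, counted with miRDeep2 and kept the largest count of a miRNA with several entries. The counts were not normalized. The genome build of the counting step is not given in the sources used here. GRCm38 is named in the submitters' processing notes. Samples were grouped by the genotype in their labels, and WT columns (1, 3 and 4) were used as replicates of their genotype only.

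Counts were tested in R 4.3.3 with edgeR 4.0.16 (TMM, quasi-likelihood test, 6 libraries, at least 6 counts, Benjamini-Hochberg over 308 miRNAs). Standard errors are the size of the log2 change over the square root of F. The contrast with Bbs6-/- used 9 libraries and at least 9 counts. Shares are percentages of all miRNA counts of a library. Since pellets came from 1 line per genotype, p-values measure the spread between pellets. Positions and sequences are from RefSeq GRCm38.p6 and gene context from GENCODE vM21. The miRNAs named were the 10 with the largest mean share, abundant calls up to 20, the 6 calls per direction with the largest CPM difference and the 6 with the largest fold change, and members of described lists. The members, lists and tests were chosen with earlier results of these data known. Alternatives were DESeq2 1.42.0, other scalings, filters and thresholds, robust spread, merged or thinned counts, a replicate block and leaving out each library. The edgeR and DESeq2 fits were tested on simulated counts. Python 3.11.15 and matplotlib 3.10.9 served for the plots.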

Additional observations from a re-analysis of the deposited data

How the results depend on the processing

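With WT or Bbs4-/- libraries left out in turn, 16 to 34 miRNAs were called higher (27 with all) and 11 to 21 lower (20), with 9 to 14 higher and 7 to 10 lower at 4-fold. Abundant moderate calls numbered 6 to 17 higher (12) and 3 to 7 lower (7). The lowest counts, 16, 11, 6 and 3, were those without Bbs4-/- replicate 1, and without Bbs4-/- replicate 3 there were 7 abundant moderate calls higher. Named calls against Bbs6-/- ranged from 2 to 5 higher (2 without Bbs4-/- or Bbs6-/- replicate 3) and 2 to 7 lower (7 without Bbs6-/- replicate 2, 2 without Bbs6-/- replicate 4). The difference in the share of miR-21a was 6.07 to 7.60 points, that of the 10 most abundant miRNAs 2.45 to 6.39, and that in the effective number -6.34 to -4.99.

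Total counts without TMM gave 11 lower at 4-fold and 11 abundant moderate calls lower. Totals outside the structural RNA-like entries gave 40 lower, 12 lower at 4-fold, and 6 higher and 15 lower abundant moderate calls, with the median of all miRNAs at -0.30. DESeq2, with its own test and scaling, gave 51 calls, 46 of them among the 47. filterByExpr, which tested 165 miRNAs, left 7 higher at 4-fold. The calls of miR-141, miR-194-2, miR-504, miR-34c and miR-34b, which had no WT counts, were lost there. No filter, with 425 tested, gave 11 lower and robust estimation 12 lower at 4-fold, and the cause was not tested. At adjusted p under 0.05, 7 abundant moderate calls were higher. A limit of 300 CPM gave 11 lower, and a fold under 2 left 2 lower. On the TMM scale the miR-21a share differed by 8.69 points and that of the top 10 by 10.003. The log2 fold change of let-7f turned to -0.0024 with totals outside those entries. That of miR-183 (-0.01) turned to 0.0429 with DESeq2, 0.0431 with its size factors, 0.0762 without a filter, 0.0027 with filterByExpr, 0.0868 with all 9 libraries, 0.0858 with identical entries merged and 0.00766 when thinned, and lay between -0.11 and 0.32 with single libraries left out.

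Column numbers 1 and 3 occur in both lines but nothing in the labels ties them to a shared batch. Deviations from the group means correlated by 0.474 and 0.599 for these numbers over 141 miRNAs. Libraries with different numbers were not correlated, so these values alone cannot show a shared preparation. With the replicate block, in which the 2 libraries with an unshared number do not inform the contrast, 35 miRNAs were called, 26 of them among the 47, with 16 higher, 4 abundant moderate calls higher and 2 lower, and miR-183 at 0.19. The block took 21 of the 47 calls, miR-21a, miR-6538, miR-30d and miR-10a among them. It also leaves few residual degrees of freedom for the test. The count of 64118 in the shallowest WT library limits what can be said of miRNAs below about 38.9 CPM.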

Other observations

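Entries with a hairpin on the X chromosome had mostly negative changes. Of 32 such entries with a listed position, 2 were called higher (miR-672 and miR-504) and 5 lower (miR-676, miR-224, miR-532, miR-221 and miR-2137), and their median log2 fold change was -0.79. For the other 231 entries with a sequence, 24 were called higher and 14 lower and the median was 0.06. miR-351, whose mature strand lies on the X chromosome, had no hairpin listed there and so falls among the 14. This split was chosen after the data were seen, and entries of 1 cluster share a transcript. The 32 include let-7f and miR-92a, which also have copies on other chromosomes, and miR-2137 of the structural RNA-like list. They also include miR-374b and miR-374c with equal values, and miR-465a, miR-465b and miR-465c at 6, 8 and 9 counts. In the cluster of miR-322, miR-503, miR-351, miR-542, miR-450a and miR-450b, 1 of 6 was called (miR-351, lower) and the median was -1.28, with miR-503 at -0.02. In the cluster of miR-532, miR-362 and miR-500 were below WT without overlap, as were 14.0% of all tested miRNAs, but not called (log2 fold changes -1.17 and -2.35). The most abundant member, miR-501, overlapped WT (-0.32), as did miR-188 (-1.24), and neither was called.

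miR-24, known from kidney injury, was not called and had 10876, 10743 and 10573 CPM in Bbs4-/- against 13825, 12166 and 18532 CPM in WT. It was thus 1 of the 14.0% of tested miRNAs that lay below WT without overlap (log2 fold change -0.47, standard error 0.20, adjusted p = 0.166, edgeR). The inflammation-linked miR-155 and the Drosha-independent miR-320 had log2 fold changes of -0.40 and -0.29 and were not called. The entry miR-194-2 had 77.3 CPM in Bbs4-/- and no count in WT, while the entry miR-194 had 132 CPM against 71.8 CPM and was not called.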
